A study of Mus musculus with 2 samples.

Results

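The circadian clock genes described here are 10 genes chosen by symbol for their place in the clock, namely the activators Clock and Arntl, the repressors Per1, Per2, Cry1 and Cry2, the nuclear receptors Nr1d1 and Nr1d2, and the output factors Dbp and Bhlhe40. All 10 were found among 52550 gene identifiers, and all 10 were among the 11673 measured genes. The cells were RAW264.7, macrophage-like mouse cells that carry the Abelson leukaemia virus, grown without treatment in 3D culture (1 library) or in 2D culture (1 library), and messenger RNA was sequenced from each. The study compared mRNA profiles of the 2 culture methods. The make of the 3D culture, the hour of harvest and the time since the last medium change are not stated in the labels, so each library holds the clock at a single moment whose phase is not known.

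The mammalian clock is a feedback loop of transcription. CLOCK and BMAL1, the product of Arntl, bind E-box sequences as a pair and drive the Per, Cry and Nr1d genes; PER and CRY proteins then return to the nucleus and repress that pair. The nuclear receptors REV-ERBα (Nr1d1) and REV-ERBβ (Nr1d2) form a further loop by repressing Arntl, and DBP carries the rhythm to other genes through D-box sequences. In macrophages this loop is known for setting daily changes in cytokine and chemokine responses.

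The 3D library held 16652503 counts and the library from 2D culture 14371084. A gene with 0 counts could have reached 0.222 counts per 1000000 (CPM), scaled by the trimmed mean of M-values (TMM), in 3D culture and 0.17 CPM in 2D culture, taking 3 counts as the limit. All 10 listed macrophage markers were detected in both libraries and summed to 9495 CPM in 3D culture and 3279 CPM in 2D culture. Lyz2, Cd68, Csf1r and Cd14 made up most of both sums. Ptprc (49.6 CPM in 3D and 135 in 2D culture), Itgam (16.0 and 21.9) and Fcgr1 (5.32 and 7.75) were lower in 3D culture, the rest higher. Of 7 lists of markers of other cell types, only the hepatocyte list exceeded 3 CPM in a library, with 308 counts over 6 genes in 3D culture and 21 in 2D culture, of which Alb gave 232 and 8; its part in the results below was not tested. The T cell genes Cd3e, Cd3d and Cd8a, the B cell gene Ms4a1 and the fibroblast genes Col3a1 and Lum were at 0 in both libraries. With 1 library per culture method there is no replicate check and no p-value. The 95% intervals given are exact intervals for counting error only, they treat reads as independent molecules, and they hold no spread between cultures. In a bulk library, fewer cells that express a gene and less RNA per cell cannot be told apart.

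Of the 10 clock genes, 3 were at least 2-fold higher in 3D culture (Nr1d1, Dbp and Bhlhe40), 2 were at least 2-fold lower (Clock and Nr1d2), and 5 lay between. The same size was passed by 18.7% of all measured genes upward and by 20.8% downward, or 39.5% in all, so 5 of 10 is near the background and is not a result about the clock as a group. The median log2 ratio of the 10 genes was -0.09, against 0.05 for all measured genes. The genes nonetheless spread widely, with log2 ratios from -2.29 for Clock to 1.16 for Nr1d1. How many of them passed 2-fold depended on the scaling. With total counts as the scale the number was 0 higher and 4 lower (background 5.59% and 36.5%), and with 25 reference genes it was again 0 higher and 4 lower (6.82% and 33.8%). With the ratios adjusted for transcript composition, as described below, 0 of the 10 passed 2-fold. The other scalings lowered the median log2 ratio of all genes to -0.56 and -0.48. Differences are therefore best read relative to these shifts, and the balance between 2 clock genes in 1 library, in which scaling cancels, is given for each pair below.

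**Figure D1:**
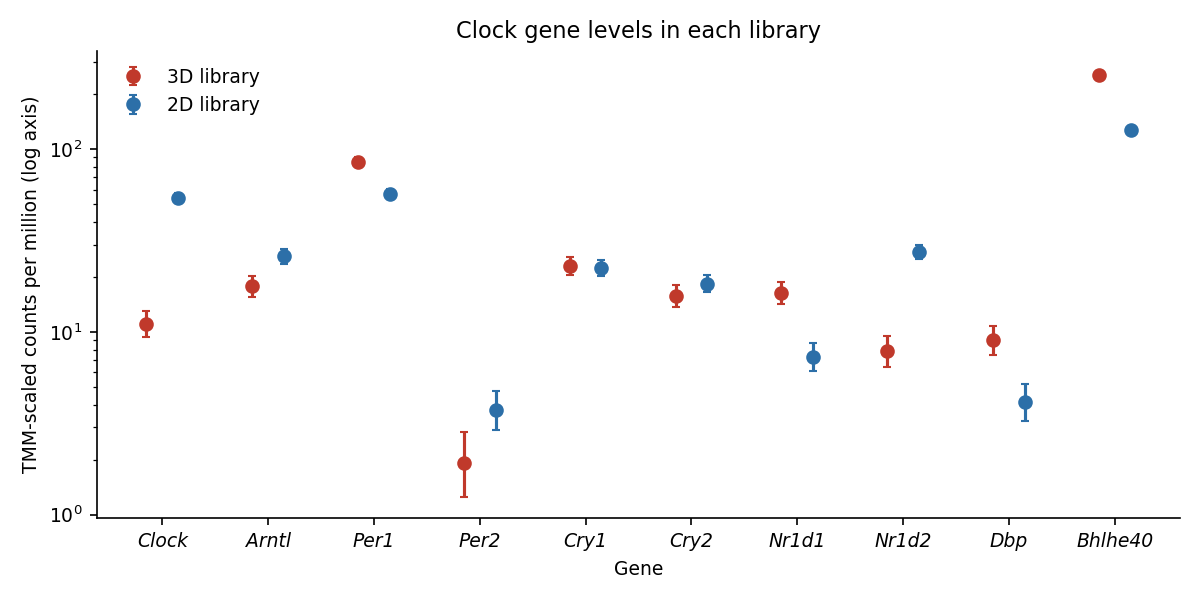
TMM-scaled counts per 1000000 (log axis) of the 10 clock genes in 3D (red) and 2D culture (blue); points are 1 library each and bars are exact 95% counting intervals. Clock and Nr1d2 sit lower in 3D culture, Nr1d1, Dbp and Bhlhe40 higher, and the Cry1 and Cry2 intervals overlap between libraries.

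The activators stood apart from each other. Clock (ENSMUSG00000029238, chr5:76209868-76304792, minus strand) encodes the histone acetyltransferase partner of the activating pair. It had 149 counts (11.0 CPM) in 3D culture and 954 counts (53.9 CPM) in 2D culture. It was 4.90-fold lower in 3D culture (95% counting interval 4.12 to 5.86), which made it the lowest of the 10 ratios and put it at percentile 4.84 of all measured genes. Its partner gene Arntl (ENSMUSG00000055116, chr7:113207465-113314126, plus strand) had 240 counts (17.7 CPM) in 3D culture and 459 counts (26.0 CPM) in 2D culture, a 1.46-fold lower level in 3D culture (1.25 to 1.72). Both activator genes thus lay lower in 3D culture, Clock by far the more. Scaling to total counts or to the reference genes put Arntl past 2-fold as well, at log2 ratios of -1.15 and -1.08. Per kilobase of exon, Arntl stood at 2.94 times Clock in 3D culture (2.39 to 3.63) and at 0.878 times Clock in 2D culture (0.784 to 0.982), a 3.35-fold shift in balance (2.64 to 4.26). The place below 1 in 2D culture rests on the exon lengths taken, 7523 bases for Arntl and 13727 for Clock. With the longest transcripts, of 3995 and 9744 bases, Arntl would lie above Clock in both libraries. The shift itself does not depend on length.

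Of the Period genes, Per1 was abundant and Per2 scarce in both libraries. Per1 (ENSMUSG00000020893, chr11:69095217-69109960, plus strand), whose promoter also answers to cyclic AMP and glucocorticoid signals, had 1155 counts (85.4 CPM) in 3D culture and 1008 counts (57.0 CPM) in 2D culture. Its ratio was 1.5 (1.38 to 1.63) under TMM scaling, but the log2 ratio of 0.58 became -0.02 with total counts and 0.05 with the reference genes, so no direction is given. Per2 (ENSMUSG00000055866, chr1:91415982-91459324, minus strand), the partner repressor, had 26 counts (1.92 CPM) in 3D culture and 66 counts (3.73 CPM) in 2D culture. It was 1.94-fold lower in 3D culture (1.22 to 3.19), just inside the 2-fold limit, and passed it with total counts and with the reference genes, at log2 ratios of -1.56 and -1.49. All genes had medians of -0.56 and -0.48 under these 2 scalings. Per1 exceeded Per2 46.2-fold per kilobase in 3D culture (31.4 to 71) and 15.9-fold in 2D culture (12.4 to 20.7), a 2.91-fold shift with a wide interval (1.81 to 4.81).

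The Cryptochrome genes, whose products are the strongest repressors of the CLOCK and BMAL1 pair, were nearly level between the libraries. Cry1 (ENSMUSG00000020038, chr10:85131700-85185064, minus strand) had 311 counts (23.0 CPM) in 3D culture and 396 counts (22.4 CPM) in 2D culture, with a ratio of 1.03 (0.882 to 1.19). Cry2 (ENSMUSG00000068742, chr2:92403646-92434043, minus strand) had 213 counts (15.7 CPM) in 3D culture and 325 counts (18.4 CPM) in 2D culture, with a ratio of 0.857 (0.717 to 1.02). Neither difference exceeded counting error under TMM scaling. Relative to total counts their log2 ratios were -0.56 for Cry1 and -0.82 for Cry2, beside a median of -0.56 for all genes under that scaling. The balance of Cry1 over Cry2 per kilobase was 2.76 in 3D culture (2.31 to 3.3) and 2.31 in 2D culture (1.99 to 2.68), and the interval of its 1.2-fold shift, 0.948 to 1.52, includes 1.

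The REV-ERB genes went opposite ways. Nr1d1 (ENSMUSG00000020889, chr11:98767932-98775333, minus strand) had 221 counts (16.3 CPM) in 3D culture and 129 counts (7.29 CPM) in 2D culture. It was 2.24-fold higher in 3D culture (1.79 to 2.80), the highest of the 10 ratios, although its log2 ratio was only 0.56 with total counts and 0.63 with the reference genes. Nr1d2 (ENSMUSG00000021775, chr14:18204054-18239127, minus strand) had 106 counts (7.83 CPM) in 3D culture and 483 counts (27.3 CPM) in 2D culture, which is 3.49-fold lower in 3D culture (2.82 to 4.34). Per kilobase, Nr1d1 stood at 3.67 times Nr1d2 in 3D culture (2.89 to 4.66) and at 0.469 times Nr1d2 in 2D culture (0.384 to 0.571). The more abundant receptor transcript was therefore Nr1d1 in 3D culture and Nr1d2 in 2D culture, and the 7.81-fold shift (5.71 to 10.7) was the largest of the 4 pairs. Exons of Nr1d1 share 263 bases, 8.55% of its exon length, with Thra on the opposite strand, which had 447 counts in 3D culture and 361 in 2D culture; the kit marks strand, but the strand setting of the counting is not given, so the Nr1d1 counts are uncertain to that extent.

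**Figure D2:**
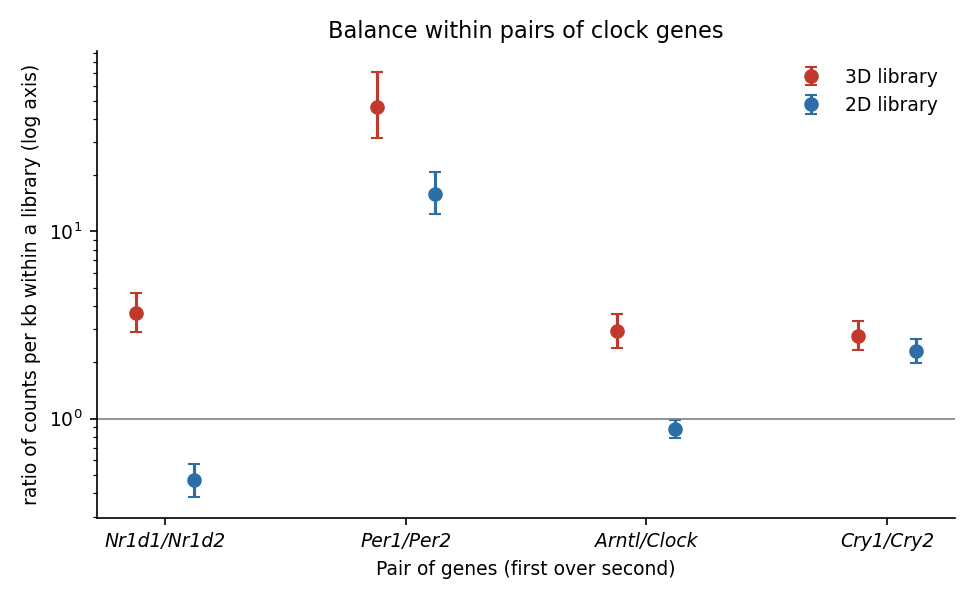
Ratio of counts per kilobase of exon between 2 clock genes of 1 library (log axis), for 3D (red) and 2D culture (blue), with exact 95% counting intervals; the grey line marks equal levels. Nr1d1 over Nr1d2 and Arntl over Clock lie above 1 in 3D culture and below 1 in 2D culture, while the intervals of Cry1 over Cry2 overlap. For Arntl over Clock, the side of 1 in 2D culture depends on the exon lengths taken, which the counting intervals do not cover.

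Proximal promoters are shown for the REV-ERB pair, whose transcripts diverged the most, and for Per1 and Cry1, the 2 members with a full E-box in a window. RefSeq windows of 300 bases (GRCm38.p6), from 250 before to 50 after an annotated start, matched 8 of the 10 genes by symbol, all except Per2 and Bhlhe40, with 12 windows in all. They were searched on both strands for the E-box CACGTG, the E'-box CACGTT, the AGGTCA core of REV-ERB and ROR elements, the cyclic AMP element TGACGTCA and the D-box in the forms TTATGTAA and TTACGTAA. Capitals mark the matches, on either strand, and each sequence is written 5′ to 3′ along its gene.
Nr1d1: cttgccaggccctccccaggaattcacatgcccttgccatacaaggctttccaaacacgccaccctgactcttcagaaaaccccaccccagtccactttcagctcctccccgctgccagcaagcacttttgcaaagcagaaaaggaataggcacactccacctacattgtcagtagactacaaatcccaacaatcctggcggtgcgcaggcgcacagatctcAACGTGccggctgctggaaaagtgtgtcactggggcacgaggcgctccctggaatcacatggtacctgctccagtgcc
Nr1d2: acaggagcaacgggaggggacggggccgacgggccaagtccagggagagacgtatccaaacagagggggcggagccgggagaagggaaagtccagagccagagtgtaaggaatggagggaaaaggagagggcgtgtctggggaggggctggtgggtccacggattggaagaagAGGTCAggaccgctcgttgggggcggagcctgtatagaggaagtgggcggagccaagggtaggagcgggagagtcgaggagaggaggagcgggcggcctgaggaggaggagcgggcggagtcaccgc
Per1: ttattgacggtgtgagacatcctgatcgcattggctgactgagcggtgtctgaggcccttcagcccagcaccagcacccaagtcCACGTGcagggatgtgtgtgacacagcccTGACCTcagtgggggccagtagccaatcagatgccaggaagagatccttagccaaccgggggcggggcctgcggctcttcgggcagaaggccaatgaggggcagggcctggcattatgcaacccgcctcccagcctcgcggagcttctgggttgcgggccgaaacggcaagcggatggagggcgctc
Cry1: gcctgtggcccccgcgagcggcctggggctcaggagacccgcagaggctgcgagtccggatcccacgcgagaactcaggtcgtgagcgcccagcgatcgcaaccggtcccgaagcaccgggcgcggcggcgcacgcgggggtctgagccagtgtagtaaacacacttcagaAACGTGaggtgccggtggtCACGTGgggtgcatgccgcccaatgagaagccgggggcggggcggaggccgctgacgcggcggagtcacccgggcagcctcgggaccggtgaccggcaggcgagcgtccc

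The Nr1d1 window (chr11:98775328-98775627, minus strand) holds 1 E'-box, at position -28 from the start, and the Nr1d2 window (chr14:18239057-18239356, minus strand) holds 1 AGGTCA core, at position -77. The Per1 window shown (chr11:69098699-69098998, plus strand) holds an E-box at position -166 and the AGGTCA core at position -137. The other Per1 window (chr11:69099902-69100201, plus strand) held no match. The Cry1 window (chr10:85185005-85185304, minus strand) holds an E'-box at position -79 and an E-box at position -60. Positions give the first base of the match, and none of these matches overlap. Of the 12 windows, 7 held a match, 1 for each of 7 genes; Cry2 held an E'-box at position -166, a further Clock window the AGGTCA core at position -119 and a further Arntl window the same core at position 32, and the Dbp window held none. Among all 32851 RefSeq windows of this length, 7.15% held the E-box, 4.68% the E'-box, 16.3% the AGGTCA core, 1.79% the cyclic AMP element and 1.06% the D-box.

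The output factors were both at least 2-fold higher in 3D culture under TMM scaling. Dbp (ENSMUSG00000059824, chr7:45705088-45710203, plus strand), an activator that binds D-boxes and is among the most strongly cycling transcripts in mouse liver, had 122 counts (9.02 CPM) in 3D culture and 73 counts (4.13 CPM) in 2D culture, a 2.18-fold higher level (1.62 to 2.96). It shares 539 bases, 18% of its exon length, with Sphk2 on the opposite strand, which had 921 counts in 3D culture and 415 in 2D culture, so its counts are uncertain for the reason given for Nr1d1. Dbp is abundant in liver, and the hepatocyte list summed to 22.8 CPM in 3D culture and 1.19 CPM in 2D culture. Alb alone gave 17.1 and 0.452 CPM of these sums. Of the 6 genes only Apoa2 was lower in 3D culture, with 2 counts against 11 in 2D culture. The part of these markers in the level of Dbp was not tested. Bhlhe40 (ENSMUSG00000030103, chr6:108660629-108666925, plus strand) encodes DEC1, which competes for E-boxes with CLOCK and BMAL1 and also answers to hypoxia and cytokines. It had 3456 counts (255 CPM) in 3D culture and 2258 counts (128 CPM) in 2D culture. Its ratio of 2.00 (1.90 to 2.11) fell on the 2-fold limit itself, so its call is arbitrary. Both genes stayed above a ratio of 1 under total counts and the reference genes, with log2 ratios of 0.53 and 0.60 for Dbp and 0.40 and 0.47 for Bhlhe40.

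The order of the 10 transcripts changed in the middle of the range and not at its ends. Levels per kilobase of exon, in CPM, depend on the exon length taken, here the union of all annotated exons. Bhlhe40 was the most abundant with 54.3 CPM per kilobase in 3D culture and 27.1 in 2D culture, followed in both by Per1 with 15.2 and 10.1 and Cry1 with 6.88 and 6.7; Per2 was the least abundant in both, with 0.328 and 0.637. In 3D culture Nr1d1 (5.31) held place 4 and Dbp (3.01) place 5, with Nr1d2 (1.45) and Clock (0.802) at places 8 and 9. In 2D culture Nr1d2 (5.05) and Clock (3.93) held places 4 and 5, with Nr1d1 (2.37) and Dbp (1.38) at places 8 and 9. Some neighbours could not be ordered because their counting intervals overlapped, namely Dbp with Cry2 and Cry2 with Arntl in 3D culture, and Clock with Arntl, Arntl with Cry2 and Cry2 with Nr1d1 in 2D culture. Summed per kilobase under TMM scaling, the activators Clock and Arntl reached 3.16 CPM in 3D culture and 7.38 in 2D culture, the 4 Per and Cry genes 24.9 and 20.4, and the REV-ERB genes 6.76 and 7.42. Per1 alone gave 15.2 and 10.1 of the Per and Cry sums. The ratio of these 2 sums, 1.22, falls below 1 under total counts and the reference genes, so no direction is given for it.

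The ratios of the clock genes ran along the base composition of their transcripts, as did those of all genes. Over all 11666 measured genes with a value, GC content of the longest transcript correlated with the log2 ratio at a Pearson r of 0.56, and the 10 GC bins had median log2 ratios between -1.34 (lowest GC) and 0.96 (highest GC). Over the 10 clock genes r was 0.80 (Spearman rho 0.76), a description across genes that share the same pair of libraries. Clock and Nr1d2, the members with the lowest ratios, had the lowest GC contents, 40.9% and 41.8%, in bins with medians of -1.34 and -0.86. Dbp (61.6%), Per1 (59.4%) and Nr1d1 (56.8%) had the highest, in bins with medians of 0.96, 0.96 and 0.82. Bhlhe40 (49.4%) lay in a bin with a median of -0.03, well below its own log2 ratio of 1.0, and Per2 (54.3%) in one with a median of 0.63, well above its own of -0.96.

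**Figure D3:**
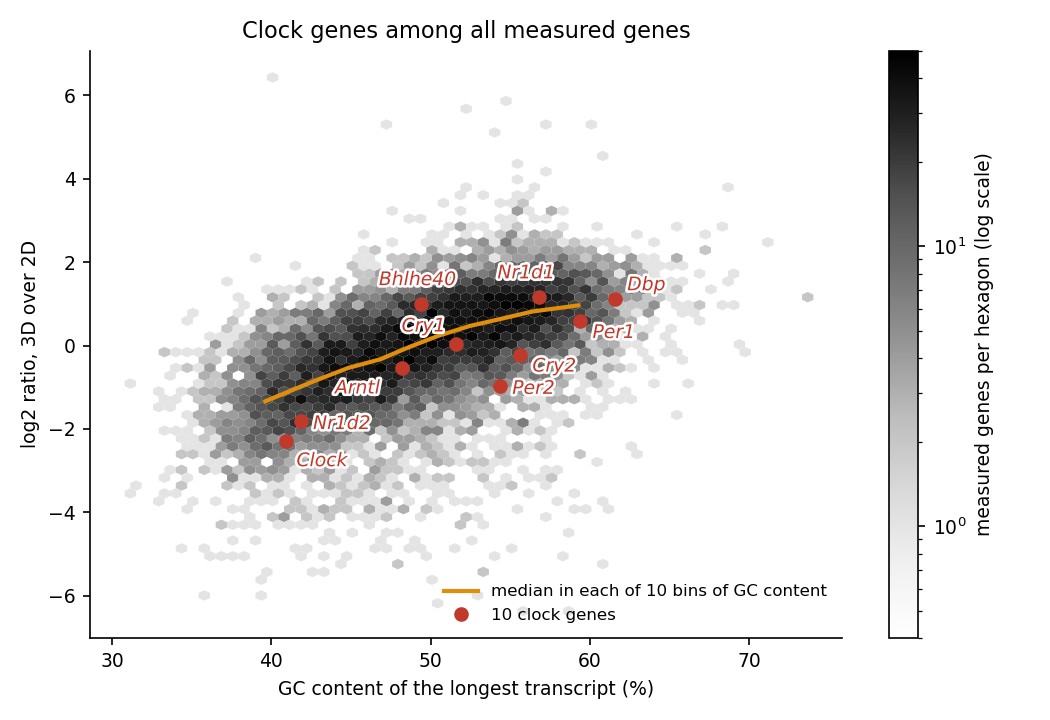
Log2 ratio of the 3D over 2D culture against GC content of the longest transcript in percent, with all measured genes as grey hexagons, the median in each of 10 GC bins as an orange line and the 10 clock genes as red points. Clock and Nr1d2 lie at the low end of the trend, and Per2, Cry2 and Clock lie furthest under the line.

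After the log2 ratio was adjusted across all genes for exon length, mean expression and GC content, 0 of the 10 clock genes remained at least 2-fold different, against 20.3% of all genes. The adjusted log2 ratio is the distance from the value fitted for a gene of that composition, length and level. It was -0.90 for Clock (percentile 11.7 of all genes), -0.70 for Nr1d2, -0.61 for Per2, -0.51 for Cry2, -0.33 for Per1, -0.22 for Cry1 and -0.12 for Arntl. It was 0.65 for Nr1d1 (percentile 80.5), 0.60 for Dbp and 0.54 for Bhlhe40. Clock, Nr1d2, Per2, Arntl and Cry2 thus stayed on the lower side and Nr1d1, Dbp and Bhlhe40 on the higher side at smaller sizes, while Per1 and Cry1, above 0 under TMM scaling, lay under 0. After adjustment for GC content alone, Clock (-1.15), Per2 (-1.51) and Bhlhe40 (1.01) were past 2-fold, against 25.5% of all genes. Per2 had not been past it under TMM scaling, while Nr1d2 (-0.78), Nr1d1 (0.43) and Dbp (0.18) fell within it. The adjusted shift in balance was 2.54-fold for Nr1d1 over Nr1d2, 1.72-fold for Arntl over Clock, 1.21-fold for Per1 over Per2 and 1.22-fold for Cry1 over Cry2. Base composition differed by 15 percentage points of GC within the REV-ERB pair and by 7.26 between Arntl and Clock, and whether the GC trend arose in the cells or in library preparation cannot be told apart with 1 library per culture method.

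**Figure D4:**
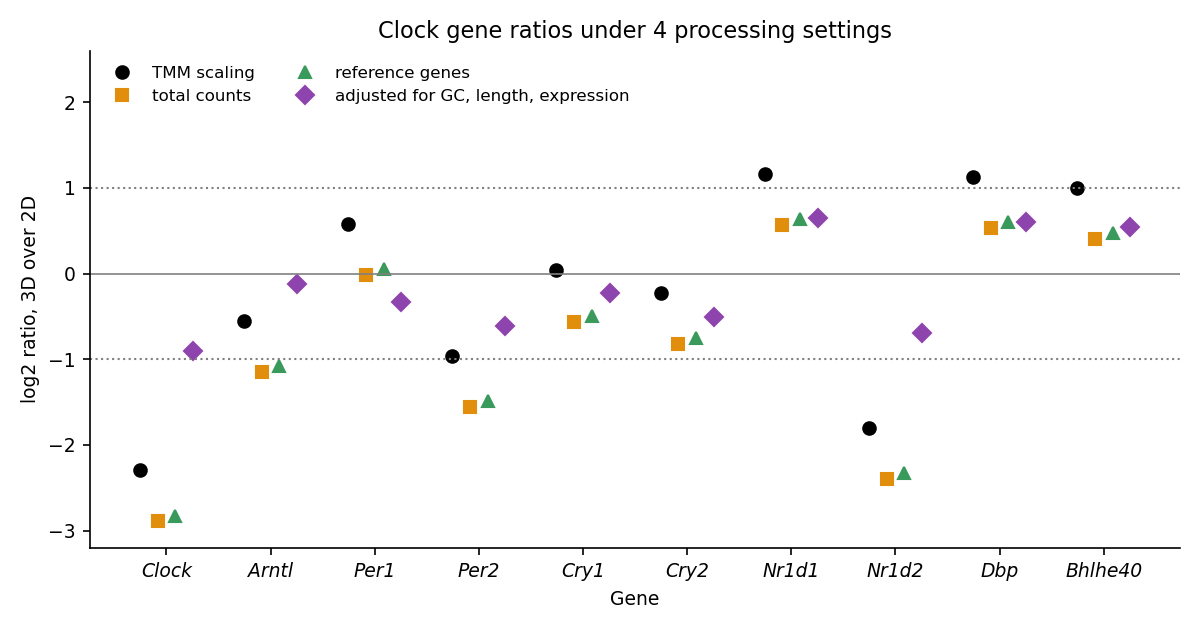
Log2 ratio of the 3D over 2D culture for the 10 clock genes under TMM scaling (black circles), total counts (orange squares), reference genes (green triangles) and after adjustment for exon length, mean expression and GC content (purple diamonds); dotted lines mark 2-fold. Nr1d1, Dbp and Bhlhe40 lie above 0 and Clock, Nr1d2, Per2, Arntl and Cry2 below 0 under all 4 settings, and no purple diamond passes a dotted line.

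Other genes of the clock, 74 in 5 lists, were read beside the 10. Of 68 measured, 15 were at least 2-fold higher in 3D culture and 15 at least 2-fold lower, which is 44.1% against 39.5% of all genes. The counts of each list below are to be read against the 18.7% of all genes that were higher and the 20.8% that were lower. Among 12 further factors of the loop, 8 were measured, 0 were higher and 3 were lower. Per3, the remaining Period gene, had 30 counts (2.22 CPM) in 3D culture and 167 counts (9.44 CPM) in 2D culture and was 4.26-fold lower (2.87 to 6.51). It kept an adjusted log2 ratio of -1.62, beyond that of any of the 10 genes. The receptor gene Rora, which activates Arntl through the elements that REV-ERBs occupy, had 11 counts in 3D culture and 47 in 2D culture, or 3.27-fold lower (1.67 to 6.99), but its adjusted log2 ratio was 0.58. Npas2, a paralog of Clock, had 0 counts in 3D culture and 1 in 2D culture, Hlf, a relative of Dbp, likewise 0 and 1, and Arntl2 and Rorb had 0 in both, so of the genes for the activating pair only Clock and Arntl had more than 1 count.

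Further members of this list stayed within 2-fold. Bhlhe41, the paralog of Bhlhe40, had 1867 counts (138 CPM) in 3D culture and 1757 counts (99.3 CPM) in 2D culture, a ratio of 1.39 (1.30 to 1.48). Tef, a D-box activator like DBP, stood at 76.2 CPM in 3D culture and 55.8 in 2D culture, and Nfil3, which represses from D-boxes, at 40.8 and 23.9. Ciart, a repressor of CLOCK and BMAL1, stood at 9.68 CPM in 3D culture and 12.4 in 2D culture, and Cipc, which binds CLOCK, at 59.2 and 87.1. Scaling to total counts, which lowers each log2 ratio by 0.60, turns the directions of Bhlhe41 and Tef.

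Of 17 measured enzymes that modify or degrade clock proteins, 5 were at least 2-fold higher in 3D culture and 4 at least 2-fold lower, beside 18.7% and 20.8% of all genes. This split rested on the scaling. Total counts gave 1 higher and 9 lower, beside 5.59% and 36.5% of all genes. The reference genes gave 1 higher and 7 lower, beside 6.82% and 33.8%. Btrc, the F-box protein that marks PER proteins for degradation, was 2.20-fold higher (1.91 to 2.54), with an adjusted log2 ratio of 2.69. The PER kinase genes also differed from each other. Csnk1d stood at 221 CPM in 3D culture and 106 in 2D culture, 2.08-fold higher (1.96 to 2.21) but within 2-fold after adjustment (log2 ratio 0.19), while Csnk1e stood at 18.6 and 32.5 CPM, 1.75-fold lower (1.5 to 2.03) and past 2-fold after adjustment (-1.24). Csnk2b (3.17-fold), Gsk3a (2.58-fold) and Siah2 (2.20-fold) were the other higher genes, and Ube3a (3.95-fold), Fbxw7 (2.18-fold) and Csnk2a1 (2.09-fold) were among the lower ones; none of these 6 passed 2-fold after adjustment.

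Cofactors of the clock complexes were at most 1.83-fold higher, and 7 of 21 were at least 2-fold lower in 3D culture, beside 20.8% of all genes. The number lower was 12 with total counts, beside 36.5% of all genes, and 11 with the reference genes, beside 33.8%. The histone methyltransferase gene Kmt2a, whose product MLL1 supports CLOCK and BMAL1 at their targets, stood at 35.0 CPM in 3D culture and 140 in 2D culture, 4.01-fold lower (3.63 to 4.43). The acetyltransferase genes Kat2b and Crebbp were 3.46-fold (2.77 to 4.36) and 3.00-fold lower (2.52 to 3.57). These 3 genes kept a 2-fold difference after adjustment, with log2 ratios of -1.91, -1.24 and -1.35. The others past 2-fold were Ezh2, Tbl1xr1, Kdm5a and Sirt1, between 2.15-fold and 2.46-fold lower, none of which stayed so after adjustment. Hdac3, the deacetylase through which REV-ERBs repress, had a ratio of 1.64 (1.52 to 1.78), and its partner gene Ncor1 one of 0.586 (0.552 to 0.621).

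Among genes that the clock or REV-ERBs are known to control, in macrophages or elsewhere, 2 of 9 measured were at least 2-fold higher and 1 lower, near the 18.7% and 20.8% of all genes. With total counts or the reference genes 2 were lower, beside 36.5% and 33.8% of all genes, and 2 were higher, beside 5.59% and 6.82%. Mmp9, a REV-ERB target in mouse macrophages, had 2731 counts (202 CPM) in 3D culture and 166 counts (9.39 CPM) in 2D culture, and its adjusted log2 ratio was 3.46. Cx3cr1, a further REV-ERB target in these cells, had 39 counts (2.88 CPM) in 3D culture and 58 counts (3.28 CPM) in 2D culture, with a ratio of 0.879 (0.57 to 1.34). The other higher gene was Cdkn1a, at 649 CPM in 3D culture and 167 in 2D culture, which did not stay past 2-fold after adjustment (log2 ratio 0.72). The lower one was Klf9, at 9.46 and 27.9 CPM, or 2.95-fold lower (2.43 to 3.62; adjusted log2 ratio -1.17). Nampt, Wee1, Klf10, Noct and Ccl2 lay between, with ratios from 0.683 for Wee1 to 1.70 for Ccl2, and Il6 had 0 counts in both libraries.

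Immediate early genes, which respond within a short time to serum and other stimuli as Per1 can, were the list with the highest median under TMM scaling. Of 13 measured, 8 were at least 2-fold higher in 3D culture and 0 lower, beside 18.7% and 20.8% of all genes, with a median log2 ratio of 1.35 against 0.05 for all genes. The number higher was 5 with total counts, beside 5.59% of all genes, and 5 after adjustment for GC alone, beside 13%. With the reference genes it was 6, beside 6.82%. After the full adjustment 6 were higher, beside 10.5% of all genes, and the median was 0.31, under the 0.42 of the output genes. Fosl1 stood at 71.2 CPM in 3D culture and 16.0 in 2D culture, 4.45-fold higher (3.90 to 5.10), and Fos at 21.6 and 5.88 CPM, 3.67-fold higher (2.92 to 4.64). Junb (3.03-fold), Dusp1 (3.00-fold), Ier2 (2.54-fold), Fosb (2.09-fold, from 32 counts in 3D culture and 20 in 2D culture), Egr1 and Egr2 made up the rest. Nr4a1, Egr3 and Btg2 had ratios of 0.934, 1.08 and 0.82, each with an interval that includes 1, beside 1.5 for Per1. The cause of these differences was not tested.

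**Figure D5:**
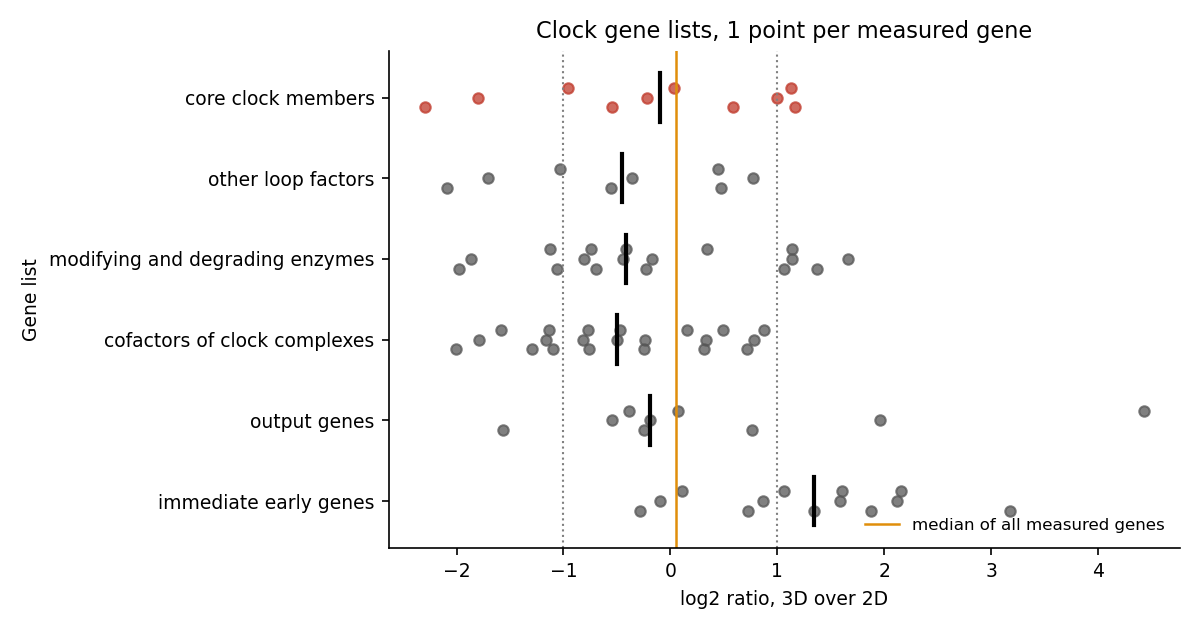
Log2 ratio of the 3D over 2D culture for each measured gene of the 10 clock genes (red) and of 5 further lists (grey); black bars are list medians, dotted lines mark 2-fold and the orange line marks the median of all measured genes, 0.05. The medians of the core genes, further loop factors, enzymes, cofactors and output genes lie below the orange line, and that of the immediate early genes lies at 1.35.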

How the data were processed

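Each culture method had 1 library of polyadenylated RNA made with a stranded kit, per the labels' protocols. The authors deposited raw counts of reads per Ensembl gene; Trimmomatic, HISAT2, HTSeq and build mm10 are named in the submitters' processing notes, while versions, annotation release, strand option and treatment of reads that match several places are not stated there. Of 52550 identifiers, 52403 matched GENCODE M21 (GRCm38), which gave symbols, positions, exon lengths and GC content of the longest transcript.

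From the counts, CPM were computed with TMM factors (0.813 for 3D, 1.23 for 2D) from edgeR 4.0.16, run in R 4.3.3. A gene was measured at a mean of at least 1 CPM. The value was the ratio of CPM in 3D over 2D with an exact conditional (Clopper-Pearson) 95% interval, and a ratio of at least 2 either way counted as a difference of size. Levels have exact Poisson intervals, and balances within pairs exact conditional odds ratio intervals. No test was possible with 1 library per group. The adjusted log2 ratio is the residual from natural cubic splines with 4 degrees of freedom (patsy 1.0.2). The code was tested on simulated data. Alternatives were DESeq2 1.42.0 size factors, upper quartile, total counts, reference genes, other filters, size rules and thinning. The 10 genes, lists and rules were chosen with earlier results of these data known; every core gene is described, and from each other list up to 6 genes past 2-fold, plus genes that complete a count. Values of some list members are not reported here, although their lists' counts include them.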

Additional observations from a re-analysis of the deposited data

How the results depend on the processing

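The 3 clock genes at least 2-fold higher in 3D culture became 0 under total counts, the reference genes, the full adjustment, the 4-fold rule and the interval bound nearest to 1, and 1 under adjustment for GC alone and a pseudocount of 1 CPM. Thinning to 0.5 of the smaller total gave 0 to 3 higher and 2 to 3 lower genes over 20 draws. By the median over the draws, 17.5% of all genes were higher and 21.7% lower. The 2 lower genes became 4 under total counts and the reference genes, 0 under the full adjustment and 1 under the 4-fold rule. Under GC alone 2 were lower, but with Per2 in place of Nr1d2. Of all measured genes, 8.9% passed the 4-fold rule, 27.5% 2-fold by the interval bound and 34.7% 2-fold with the pseudocount. In the 5 other lists, the 15 higher genes became 8 under total counts, 9 under the reference genes, 8 under the full adjustment and 4 under the 4-fold rule. Of all genes, 5.59%, 6.82%, 10.5% and 2.23% were higher under these settings. The 15 lower genes became 27, 24, 6 and 2 under the same settings, 8 under GC alone and 9 under the interval bound. In the same order, 36.5%, 33.8%, 9.75%, 6.67%, 12.5% and 14.4% of all genes were lower. Thinning left the balances within the 4 pairs inside their intervals; the full adjustment changed the log2 shift to 1.35 for Nr1d1 over Nr1d2, 0.78 for Arntl over Clock and 0.28 for Per1 over Per2. Of the called genes among the 10 and in the other lists, only Rora reversed, from a log2 ratio of -1.71 to 0.58 under the full adjustment. The causes were not tested. DESeq2, upper-quartile and protein-coding scaling, no filter and a 5 CPM filter changed none of the counts by more than 1.5 times in the 10 genes or the other lists together. No paired analysis was possible because each culture method has 1 library without a replicate number, and no library could be left out. Depth limits Per2, Per3 and Rora most, with under 50 counts each in 3D culture.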
